A study of Mus musculus with 14 samples.

Results

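The mouse genome encodes 6 DNA topoisomerases, and their transcripts were followed here across all libraries of a study of the chromatin remodeller Chd7 in granule neuron progenitors (GNPs). The members were found by symbol (Top1, Top1mt, Top2a, Top2b, Top3a and Top3b), which matched 6 of the 41381 Ensembl genes in the deposited table. All 6 passed the filter on low values (1 TPM or more in 4 or more libraries, TPM being a transcript abundance scaled for length and to the same total in each library), as did 17325 genes in all. The question put to them comes from the study itself, which asks about Chd7 and Top2b at long neuronal genes, and the series allows it to be asked only at the level of transcript abundance.

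Topoisomerases relieve the twisting of DNA that builds up ahead of and behind moving polymerases. Type I enzymes cut and reseal a single strand, whereas type II enzymes pass a duplex through a break in both strands and use ATP to do so. Top1 encodes the nuclear type I enzyme that acts at transcribed and replicating DNA, and Top1mt its mitochondrial relative. Top2a encodes the type II enzyme of dividing cells, which disentangles chromosomes before they separate, and Top2b encodes the type II enzyme that remains in post-mitotic neurons and is needed for the expression of many neuronal genes. Top3a and Top3b encode type IA enzymes: the former works with the Blm helicase on recombination intermediates and the latter, with Tdrd3, also acts on RNA.

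RNA-seq of total RNA was performed on GNPs that were isolated from cerebella at postnatal day 7 (P7) and not cultured. GNPs divide in the outermost layer of the early postnatal cerebellum and are the source of its granule neurons. The WT group (n = 5) carried floxed Chd7 alleles and no Cre (labelled Chd7 wild type or Atoh1-Cre negative), the Het group (n = 5) was Atoh1-Cre::Chd7 f/+ and the Hom group (n = 4) Atoh1-Cre::Chd7 f/f. Atoh1-Cre is expressed in the granule cell lineage and recombines less completely in the posterior lobe, so that some cells of the Het and Hom preparations can keep intact alleles. The mice are labelled C56Bl6/J in the first deposit and C57BL/6 in the second, whereas the methods of the study name C57BL/6N. The sex of the pups was not distinguished, and pooling is not stated. Nothing in the labels states that the libraries of a group came from separate animals, so the p-values measure the spread between these libraries, which may in part be technical.

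The libraries were sequenced in 2 batches, as given in the methods of the study: WT 1 to 3, Het 1 to 3, Hom 1 and Hom 2 formed batch 1 (8 libraries), and WT 4 and 5, Het 4 and 5, Hom 3 and Hom 4 formed batch 2 (6 libraries). Het 3 was deposited with the second set of samples, and the linear models and the comparisons of ranges that rest on its place are given both ways. The rank test and the correlations keep it in batch 1. TPM allows levels to be compared between genes, but it keeps no read count and the depth behind single values is unknown.

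Before the topoisomerases, the targeted gene and the cell type markers were inspected. Chd7 itself did not follow the labels in batch 1, where it stood at 121 to 152 TPM in the 3 WT libraries and at 172 and 185 TPM in the libraries labelled Hom. In batch 2 it stood at 203 and 272 TPM in WT and at 126 and 150 TPM in Hom. Gene-level TPM covers every exon of Chd7, including those outside the recombined part, and so does not check the deletion. Reads from intact exons and exchanged labels cannot be told apart from these values, so WT, Het and Hom are used below as the labels give them, and every direction between genotypes rests on those labels. Markers of the labelled cell type were abundant in all libraries: Zic1, a transcription factor of the granule lineage, had a mean of 887 TPM, and the 18 proliferation genes summed to between 2286 and 3525 TPM. The defining marker of mature granule neurons Gabra6 had a mean of 0.287 TPM. The 12 markers of differentiating granule neurons, Gabra6 among them, summed to between 2225 and 3146 TPM, so neuronal transcripts were abundant too. The 6 endothelial markers summed to 19.5 to 32.7 TPM in WT 1 to 3 and Het 3 and to 106 to 431 TPM in the other 10 libraries, and the 6 Purkinje cell markers to 138 to 182 TPM in WT 1 to 3 and to 27.1 to 83.0 TPM elsewhere. These 4 libraries stand apart from the rest in marker levels, and the linear models and correlations below were also computed without them.

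The 6 genes lie on 5 chromosomes of GRCm38 (mm10; GENCODE vM21 annotation, 1-based). Top1 spans chr2:160645888-160722764 (plus strand, 76.9 kb), Top1mt chr15:75657035-75678800 (minus strand, 21.8 kb), Top2a chr11:98992943-99024189 (minus strand, 31.2 kb), Top2b chr14:16365179-16435462 (plus strand, 70.3 kb), Top3a chr11:60740058-60777365 (minus strand, 37.3 kb) and Top3b chr16:16870736-16892990 (plus strand, 22.3 kb). None of them spans over 100 kb. Annotated exons of 4 members overlap those of another gene. The largest overlap is between Top2b and Rarb, a retinoic acid receptor gene on the opposite strand, which share 1793 exonic bases. Rarb stood at 2.71 to 5.94 TPM, well under the 198 to 285 TPM of Top2b. Vpreb1 shares 108 bases with Top3b on the opposite strand (at most 0.92 TPM), the antisense transcript Gm15945 shares 95 bases with Top1mt (at most 0.37 TPM), and the small nucleolar RNA gene Gm23451 lies wholly in the exons of Top2a (122 bases, same strand, at most 5.07 TPM). The counting is not stated to use strand, and reads from the shared bases cannot be told apart.

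Promoter windows (the 250 bases before the annotated start, RefSeq, GRCm38.p6) matched 4 of the 6 genes, namely Top1, Top2a, Top2b and Top3b. The windows of Top1 and of both type II genes are printed 5′ to 3′ on the gene's own strand, because Top1 and Top2a passed the test for moving with proliferation markers and Top2b did not (see the correlations with proliferation genes). Capitals mark every match, on either strand, to the CCAAT box (CCAAT or ATTGG), the GC box (GGGCGG or CCGCCC) and the cell cycle genes homology region, CHR (TTTGAA or TTCAAA), and no match overlapped another.
Top1, chr2:160645647-160645896, plus strand: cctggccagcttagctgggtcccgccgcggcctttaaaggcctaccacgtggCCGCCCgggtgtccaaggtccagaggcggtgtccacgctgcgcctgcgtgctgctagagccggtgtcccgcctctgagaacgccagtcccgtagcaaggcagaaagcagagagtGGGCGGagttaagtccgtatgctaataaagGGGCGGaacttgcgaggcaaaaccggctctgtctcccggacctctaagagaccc
Top2a, chr11:99024190-99024439, minus strand: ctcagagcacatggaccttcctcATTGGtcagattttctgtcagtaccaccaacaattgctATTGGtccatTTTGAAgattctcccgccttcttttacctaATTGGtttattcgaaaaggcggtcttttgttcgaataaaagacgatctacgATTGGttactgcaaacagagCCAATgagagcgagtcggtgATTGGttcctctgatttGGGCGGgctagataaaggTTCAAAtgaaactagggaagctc
Top2b, chr14:16364956-16365205, plus strand: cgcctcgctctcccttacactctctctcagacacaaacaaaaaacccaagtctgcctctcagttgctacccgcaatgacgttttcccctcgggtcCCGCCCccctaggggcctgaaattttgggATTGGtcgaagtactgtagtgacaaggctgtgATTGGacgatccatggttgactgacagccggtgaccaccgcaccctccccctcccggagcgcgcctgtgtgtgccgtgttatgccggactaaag

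The Top2a window held 6 CCAAT boxes, 1 GC box and 2 CHR matches. Of all 32817 promoter windows of the same length, 33.8% held at least 1 CCAAT box and 0.0579% held 6 or more, and 16% held a CHR match with 1.81% holding 2 or more. CCAAT boxes and CHR elements are known from promoters of genes expressed late in the cell cycle. The Top2b window held 2 CCAAT boxes (2 or more in 10.1% of windows), 1 GC box and no CHR match, and the Top1 window held 3 GC boxes (3 or more in 8.47%) and neither of the other motifs. A GC box was present in 32.7% of all windows. The Top3b window held 1 CCAAT box only. These matches describe the letters of the windows and are no evidence of binding. The windows also differed in base composition, with 43.6% G and C in Top2a, 57.6% in Top2b and 63.6% in Top1 against a median of 52.4% over all windows.

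Top2a was the most abundant topoisomerase transcript in these progenitors, followed by Top2b, Top1, Top3b, Top3a and Top1mt. Over the 14 libraries the means were 448 ± 98.9 TPM for Top2a, 239 ± 22.2 for Top2b, 120 ± 26.2 for Top1, 95.3 ± 9.15 for Top3b, 14.3 ± 2.19 for Top3a and 4.25 ± 0.645 for Top1mt (SD, n = 14). Top2a ranked between 200th and 486th of all genes in the single libraries, Top2b between 478th and 799th, and Top1mt between 12184th and 13706th. Top2a exceeded Top2b in 14 of 14 libraries, by 1.27 to 2.44 times, although the ranges of the 2 genes over all libraries overlapped. Top2b exceeded Top1 in 14 of 14 libraries, and their ranges were apart. Top1 and Top3b were the only neighbours in this order that changed places: Top1 was the higher in 12 of 14 libraries, and Top3b exceeded it in the remaining 2, WT 4 and Het 4. Top3a stood 5.0 to 8.71 times below Top3b and 2.31 to 4.48 times above Top1mt, without overlap.

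The members differed in how much they varied. Top2b and Top3b were the steadiest, with coefficients of variation of 9.31% and 9.60% over the 14 libraries and highest to lowest ratios of 1.44 and 1.38. Top2a and Top1 varied most (22.1% and 21.8%), with ratios of 2.15 and 2.72, and Top3a (15.4%) and Top1mt (15.2%) lay between.

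**Figure D1:**
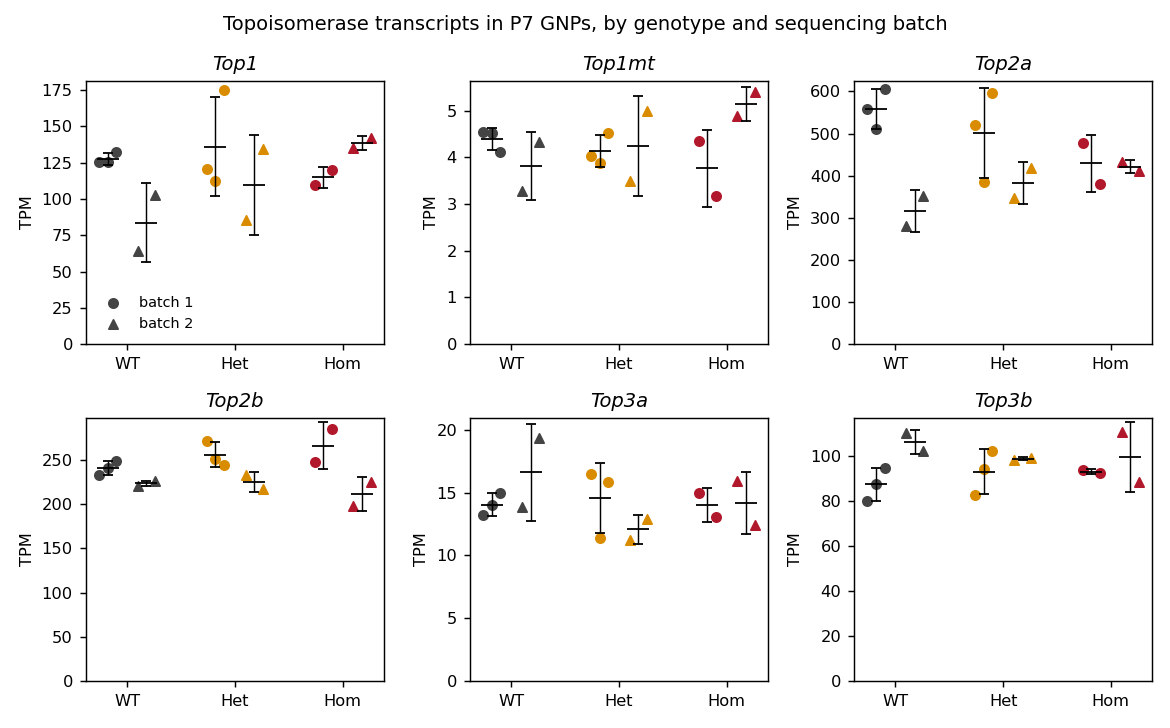
TPM of each topoisomerase (vertical axis, from 0) in every library, by genotype label (horizontal axis) and sequencing batch (circles, batch 1; triangles, batch 2); black bars give the mean and SD of each genotype in each batch. Top2a and Top1 are lower in libraries labelled Hom than in WT in batch 1 and higher in batch 2, and for Top2b, Top3a and Top3b Hom overlaps WT in both.

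No topoisomerase passed the test for a difference between the genotypes over all 14 libraries. In a linear model with genotype and batch (limma, Benjamini-Hochberg adjustment over all 17325 genes), 0 of 6 members were called at an adjusted p under 0.05 for Hom against WT, where 2.68% of all genes were called (1.41% lower and 1.27% higher). The count was 0 of 6 for Het against WT (0.00577% of all genes called) and 0 of 6 for Hom against Het (0.427%). At an unadjusted p under 0.05 it was also 0 of 6 in each, beside 14.9%, 6.08% and 6.18% of all genes in Hom against WT, Het against WT and Hom against Het. An exact permutation of the Kruskal-Wallis statistic within batch, over 50400 arrangements, placed 0 of 6 members under the unadjusted threshold of 0.01 used in the study (3.95% of all genes), and their exact p-values ranged from 0.62 for Top3a to 0.991 for Top3b. In bulk RNA, a lower level can mean fewer cells that express a gene or less RNA per cell, and these cannot be told apart here.

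Top2b, the member that the study set beside Chd7, was the most tightly bounded of the 6. In WT it stood at 233, 240 and 249 TPM in batch 1 and at 221 and 226 TPM in batch 2. In Het it stood at 272, 251 and 245 TPM in batch 1 and at 233 and 217 TPM in batch 2, and in Hom at 248 and 285 TPM and at 198 and 225 TPM. The genotypes overlapped in both batches, but with Het 3 (245 TPM) placed in batch 2 both Het libraries of batch 1 lay above all WT libraries. The change of log2(TPM + 1) in Hom against WT was 0.04 ± 0.06 (SE, adjusted p = 0.833), with a 95% interval of -0.10 to 0.18, which corresponds to 0.934 to 1.13 times the WT level. That interval joins both batches, and the change was 0.14 ± 0.08 in batch 1 alone and -0.08 ± 0.09 in batch 2 alone. For Het against WT it was 0.06 ± 0.06 (adjusted p = 0.919), with an interval of -0.07 to 0.19. Changes of Top2b within these intervals remain compatible with these libraries, and the intervals are not a limit of detection.

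The other members were less tightly bounded. For Hom against WT the change in log2(TPM + 1) was 0.27 ± 0.20 for Top1 (SE, adjusted p = 0.595, interval -0.17 to 0.70), -0.02 ± 0.16 for Top2a (0.975, -0.37 to 0.33) and 0.06 ± 0.15 for Top1mt (0.897, -0.26 to 0.39). It was -0.08 ± 0.14 for Top3a (0.853, -0.39 to 0.22) and 0.01 ± 0.08 for Top3b (0.98, -0.17 to 0.19). For Het against WT the 6 changes lay between -0.15 (Top3a) and 0.19 (Top1), with adjusted p-values of 0.9 or more. Both comparisons use the same WT libraries. The median change of the 6 members was 0.02 in Hom against WT, beside 0.02 for all genes tested.

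For Top2a this small change over all libraries joined opposite differences in the 2 batches. In WT, Top2a stood at 558, 511 and 605 TPM in batch 1 and at 281 and 351 TPM in batch 2. In the libraries labelled Hom it stood at 477 and 381 TPM in batch 1 and at 432 and 411 TPM in batch 2. Every Hom library was thus below every WT library in batch 1 and above every WT library in batch 2. The means of Hom were close (429 and 421 TPM) and those of WT were not (558 and 316 TPM). In Het, with 521, 386 and 596 TPM in batch 1 and 347 and 417 TPM in batch 2, Top2a overlapped WT in both batches, wherever Het 3 was placed. The change in Hom against WT was -0.38 ± 0.18 in batch 1 alone (limma adjusted p = 0.395) and 0.42 ± 0.14 in batch 2 alone (adjusted p = 0.257). Their difference was 0.81 ± 0.26 on the log2 scale, with an interval of 0.24 to 1.37 and an adjusted p in limma of 0.169, so it did not pass the threshold over all genes.

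Top1 followed the same pattern. It stood at 125, 125 and 132 TPM in WT and at 110 and 120 TPM in Hom in batch 1, and at 64.5 and 103 TPM in WT and at 135 and 142 TPM in Hom in batch 2. Again every Hom library lay below WT in batch 1 and above it in batch 2. In Het it stood at 121, 112 and 175 TPM in batch 1 and at 85.2 and 134 TPM in batch 2, overlapping WT in both. The overlap in batch 1 came from Het 3 (175 TPM) alone, and with it placed in batch 2 both Het libraries of batch 1 were below WT while batch 2 still overlapped. The change in Hom was -0.15 ± 0.17 in batch 1 and 0.76 ± 0.28 in batch 2, a difference of 0.91 ± 0.34 (adjusted p in limma of 0.22). Without WT 4, the library in which Top1 was lowest, the difference was 0.57 for Top1 and 0.64 for Top2a.

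Among the 6 members, 2 had Hom and WT apart in both batches in opposite directions, a pattern held by 8.05% of all genes tested, and 0 had it for Het (3.33%), also with Het 3 in batch 2 (5.58%). At an adjusted p under 0.05 for the difference between batches, 0 of 6 members were called for Hom (0.0115% of all genes) and 0 of 6 for Het (0.00577%). At an unadjusted p under 0.05 these counts were 2 (17.2% of all genes) and 0 (9.3%). Endothelial markers differed between these groups in batch 1, with sums of 23.6 to 32.7 TPM in WT and of 106 and 324 TPM in Hom, and overlapped in batch 2 (199 and 109 TPM in WT, 197 and 282 TPM in Hom). Sums of the proliferation markers had the same order of Hom and WT as Top2a and Top1 in each batch. In batch 1 they were 3011 to 3321 TPM in WT and 3003 and 2751 TPM in Hom. There Hom 1 (3003 TPM) lay only just under WT 2 (3011 TPM). In batch 2 they were 2286 and 2550 TPM in WT and 2985 and 2754 TPM in Hom. The part of either marker list in the result was not tested. With the 4 libraries of low endothelial marker level left out, a choice made after the marker levels were seen, the change of Top2a in Hom against WT over both batches was 0.37 (adjusted p = 0.29).

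Top1mt, which stood at 3.18 to 5.40 TPM, showed Hom above WT in batch 2 only (4.89 and 5.40 against 3.29 and 4.32 TPM) and overlapped in batch 1 (4.35 and 3.18 against 4.55, 4.52 and 4.11 TPM). Het overlapped WT in both batches, but with Het 3 (4.53 TPM) placed in batch 2 the other Het libraries of batch 1 (4.02 and 3.87 TPM) were below WT. Top3a had a single high value, 19.4 TPM in WT 5, while the other 13 libraries lay between 11.3 and 16.5 TPM. In batch 2 both Het libraries (11.3 and 12.9 TPM) were below both WT libraries (13.9 and 19.4 TPM), but in batch 1 they overlapped, and with Het 3 (15.9 TPM) placed in batch 2 they overlapped there too. Top3b ranged from 79.9 TPM in WT 1 to 110.5 TPM in Hom 3, and its values in Hom (93.7 and 92.2 TPM in batch 1, 110.5 and 88.3 TPM in batch 2) fell within those of WT or overlapped them in each batch. In batch 2 both Het libraries (98.1 and 99.1 TPM) were below both WT libraries (109.9 and 102.2 TPM), also with Het 3 placed there, and in batch 1 Het overlapped WT.

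**Figure D2:**
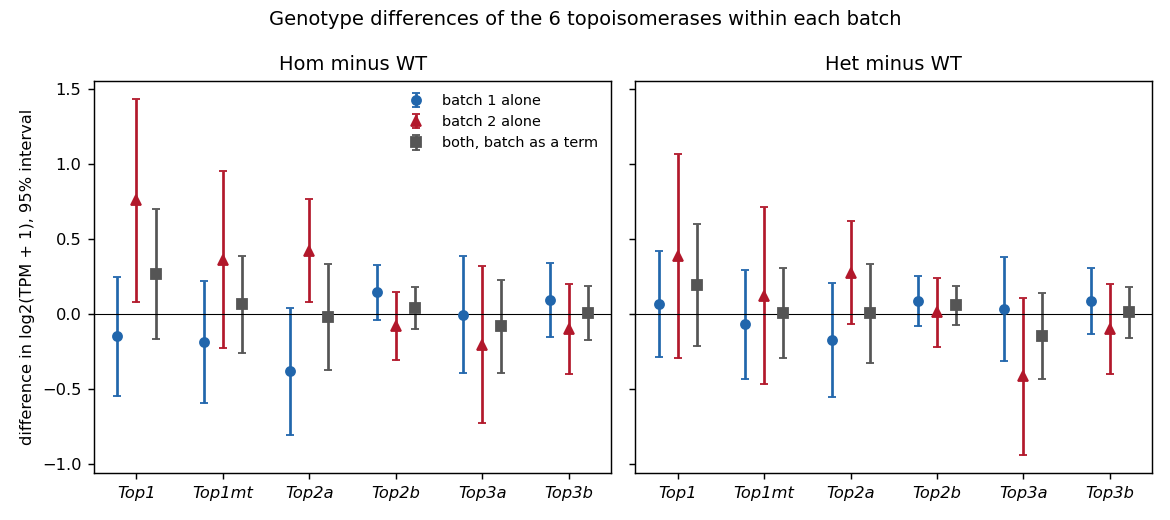
Difference from WT in log2(TPM + 1) (vertical axis) with 95% intervals from limma for each topoisomerase (horizontal axis), in libraries labelled Hom (left) and Het (right), for batch 1 alone, batch 2 alone and both batches with batch as a term. For Top1 and Top2a in Hom the batch 1 estimates are below 0 (-0.15 and -0.38) and the batch 2 estimates above 0 (0.76 and 0.42).

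The sequencing batches differed in both type II genes. Top2a was lower in batch 2 than in batch 1 (log2 change -0.43 ± 0.13, adjusted p in limma 0.0473), with 381 to 605 TPM in batch 1 and 281 to 432 TPM in batch 2. Top2b was also lower (log2 change -0.20 ± 0.05, adjusted p = 0.0253), with 233 to 285 TPM in batch 1 and 198 to 233 TPM in batch 2, and its ranges overlapped only through WT 1 and Het 4. Thus 2 of 6 members were called, both lower, where 13.5% of all genes were called (5.61% lower and 7.88% higher). Top1 (-0.26 ± 0.16, adjusted p = 0.317) and Top3b (0.16 ± 0.07, adjusted p = 0.143) did not pass. The Top2a call was lost when any 1 of WT 1 to 5, Het 1, Het 3, Het 4, Het 5 or Hom 1 was left out (adjusted p between 0.0564 and 0.124), and that of Top2b when Het 5 was left out (0.0588). With Het 3 placed in batch 2, 0 members were called, and without the 4 libraries of low endothelial marker level the count was also 0, the change of Top2a being then -0.13 and that of Top2b -0.27.

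The balance of the type II enzymes was described by the share of Top2b in the summed TPM of Top2a and Top2b. This share ranged from 29.1% in Het 3 and WT 3 to 44.0% in WT 4, with a median of 34.3% over the 14 libraries. In batch 1 it was 29.1% to 32.0% in WT, 29.1% to 39.4% in Het, and 34.2% and 42.8% in Hom, and both Hom libraries were above all WT libraries. In batch 2 it was 39.1% and 44.0% in WT, 34.2% and 40.2% in Het, and 31.5% and 35.4% in Hom, and both Hom libraries were below both WT libraries. With Het 3 in batch 2, the Het libraries of batch 1 (34.3% and 39.4%) were also above all WT libraries. The order of Hom and WT was thus opposite in the 2 batches for this share. The share is computed from Top2a, whose order was opposite, while Top2b overlapped between Hom and WT in both batches. It therefore restates the Top2a values given above and is no separate observation.

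To relate the topoisomerases to the state of the cells, their levels were compared across the 14 libraries with the mean level of 18 proliferation genes and of 11 genes of differentiating granule neurons, the batch term being removed from both. The study's cells range from dividing progenitors to young neurons, and Top2a is known for the former and Top2b for the latter. Of the 12 relations, 3 passed an adjusted p of 0.05, all with the proliferation genes. Top2a followed them most closely, with Pearson's r = 0.935 (permutation within batch, 100000 resamples, two-sided p = 3e-05, adjusted p = 0.00036) and Spearman's rho = 0.934 (permutation p = 4e-05, adjusted p = 0.00048). Without the 2 libraries farthest from the median marker level, Het 2 and WT 4, r was 0.888, and within the batches it was 0.943 (8 libraries) and 0.926 (6 libraries). For Top1, r was 0.784 (permutation p = 0.0008, adjusted p = 0.0048) and rho 0.855 (permutation p = 0.00056, adjusted p = 0.00336), with 0.749 after the same 2 libraries were left out and 0.762 and 0.887 within the batches. For Top1mt, r was 0.726 (permutation p = 0.0045, adjusted p = 0.018) and rho 0.71 (permutation p = 0.00869, adjusted p = 0.0348), with 0.691 after the same omission and 0.662 and 0.823 within the batches; leaving out WT 4 alone gave 0.661 and an adjusted p of 0.0503. Within single batches the adjusted p passed only for Top2a in batch 1.

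Top2b did not rise with the proliferation genes. Its r was -0.515 (permutation p = 0.0714, adjusted p = 0.214) and its rho -0.477 (permutation p = 0.0946, adjusted p = 0.281), with -0.403 and -0.705 within the batches and -0.691 without Het 2 and WT 4. The relation was therefore negative in each batch but did not pass the test. For Top3a, r was 0.432 (permutation p = 0.142, adjusted p = 0.244; rho 0.464, permutation p = 0.117, adjusted p = 0.281), with 0.821 in batch 1 and 0.123 in batch 2. For Top3b, r was 0.03 (permutation p = 0.922, adjusted p = 0.974; rho 0.06, permutation p = 0.839, adjusted p = 0.895). None of the 6 relations with the genes of differentiating granule neurons passed: r lay between -0.489 (Top1) and 0.354 (Top3b), with permutation p-values of 0.133 to 0.974, adjusted p-values of 0.244 or more, and rho between -0.446 and 0.323. For Top2b that r was 0.01. Of the 3 promoter windows printed above, that of Top2a held CHR matches and those of Top1 and Top2b did not.

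**Figure D3:**
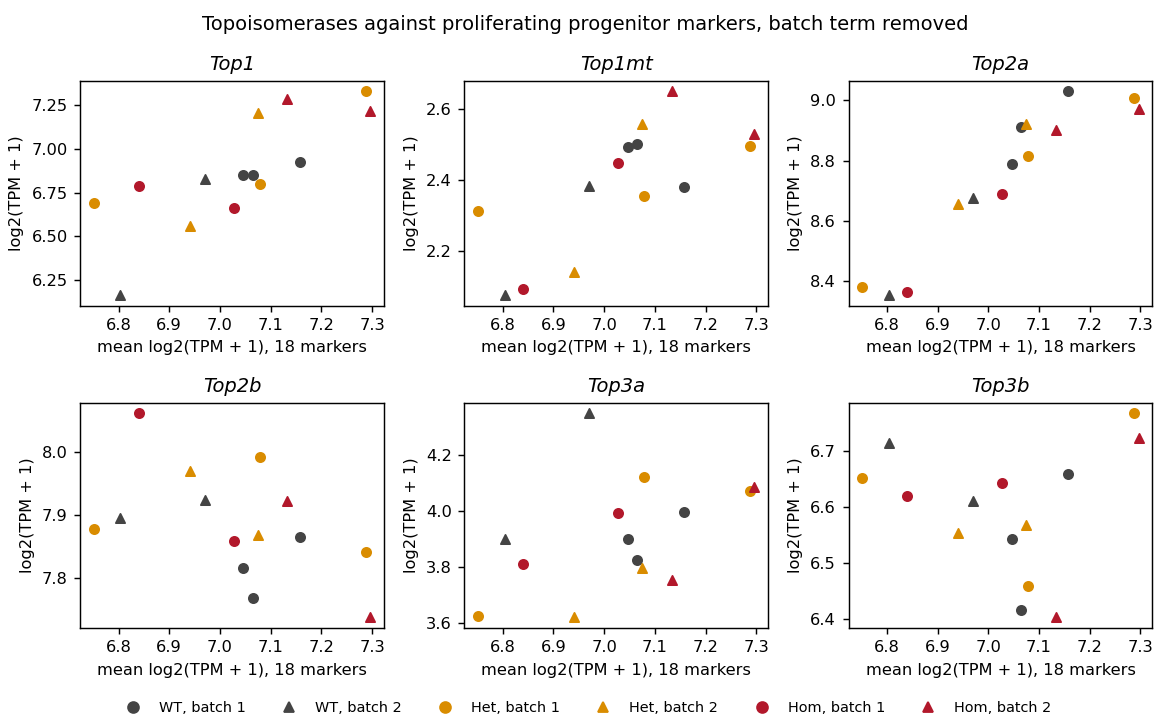
Level of each topoisomerase in log2(TPM + 1) (vertical axis) against the mean log2(TPM + 1) of 18 proliferation genes (horizontal axis) in the 14 libraries, batch term removed from both; colours give the genotype label and symbols the batch. Top2a rises along the axis (r = 0.935), as do Top1 (0.784) and Top1mt (0.726), whereas Top2b tends downwards (-0.515, not past the test).

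The genes most like each topoisomerase over the 14 libraries (Pearson's r of batch-adjusted log2(TPM + 1), among 12295 genes with a mean TPM of at least 5) were listed as a description. These libraries share their batches and their cell composition, and with so many genes searched the highest r is large by selection. Nearest to Top2a were Impa1, an inositol monophosphatase gene (r = 0.976), and the mitotic genes Melk, a kinase (0.966), and Ube2c, the ubiquitin-conjugating enzyme of the anaphase-promoting complex (0.964). Nearest to Top1 were Ezh2, the histone H3 methyltransferase of a Polycomb complex (0.962), Rpgrip1l, a protein of the ciliary transition zone (0.957), and the chaperone gene Hsph1 (0.956). Nearest to Top2b were Ofd1, a centriole and ciliary protein (0.927), the noncoding Gm26735 (0.922) and Nsmce4a, a subunit of the Smc5-Smc6 complex (0.887). Top1mt was nearest to Tmem107, a protein of the ciliary transition zone (0.951), B130055M24Rik (0.948) and the Hsp90 activator Ahsa1 (0.938). Top3a was nearest to the zinc finger gene Zbtb11 (0.942), Fbxo46 (0.92) and Ticrr, a replication initiation factor (0.915), and Top3b to Mllt6 (0.908), the lysosomal sulphatase Ids (0.853) and the coenzyme Q gene Coq6 (0.846). Spearman's rho for these 18 pairs lay between 0.82 and 0.978, and r kept its sign within both batches in all 18.

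Genes that work with topoisomerases were then inspected as lists. In the genotype comparisons none of these lists held a gene past the limma threshold. Among the 5 partners of the type IA enzymes (Blm, Rmi1, Rmi2, Tdrd3 and Fmr1), 0 were called in Hom against WT, also at an unadjusted p under 0.05, and the largest changes were 0.31 ± 0.18 for Rmi2 (SE, adjusted p = 0.469) and -0.09 ± 0.12 for Rmi1 (0.81), 2 subunits of the complex that Top3a forms with Blm. Among 15 genes that remove trapped topoisomerase from DNA or rejoin the broken ends, 0 were called and 2 had an unadjusted p under 0.05, where 14.9% of all genes did. The largest changes were 0.39 ± 0.13 for Rad50 (adjusted p = 0.187), which tethers broken ends, and -0.35 ± 0.21 for Lig4 (0.477), the ligase of end joining. The median of this list was 0.16, beside 0.02 for all genes. Tdp1 and Tdp2, the phosphodiesterases that release Top1 and Top2 from DNA, had mean levels of 49.0 and 88.8 TPM and changes of 0.24 (adjusted p = 0.341) and -0.01 (0.984).

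Of the 8 condensin subunits, which compact chromosomes together with Top2a, 0 were called in Hom against WT and 0 had an unadjusted p under 0.05; Smc4 changed by 0.16 ± 0.11 (adjusted p = 0.537) and Ncapg2 by -0.15 ± 0.13 (0.664). The same counts held for the 10 genes of cohesin and Ctcf, with which Top2b is found at loop anchors, the largest changes being 0.21 ± 0.10 for Pds5b (0.35) and 0.16 ± 0.09 for Pds5a (0.431), both cohesin regulators. Of 11 chromatin remodellers or related proteins reported with topoisomerases, 0 were called and 3 had an unadjusted p under 0.05 (14.9% of all genes). Actl6b, the neuronal subunit of the BAF remodelling complex, changed by -0.30 ± 0.10 (adjusted p = 0.162) and the poly(ADP-ribose) polymerase gene Parp1 by 0.25 ± 0.10 (0.265). Of the 18 proliferation genes 0 were called and 0 had an unadjusted p under 0.05, with Bub1b at 0.19 ± 0.18 (0.69) and Mcm2 at 0.16 ± 0.09 (0.479). Gm960, a partner of the meiotic topoisomerase VI-like enzyme Spo11, was the only one of these 2 genes to pass the filter, at about 1.42 TPM in WT, and changed by -0.12 (0.83). In Het against WT and in Hom against Het these lists held 0 called genes as well, with 1 remodeller at an unadjusted p under 0.05 in each.

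Between the batches the lists moved in part with Top2a and Top2b. Of all genes tested, 5.61% were called lower and 7.88% higher in batch 2. Of the 8 condensin subunits 3 were lower (Smc2 by -0.50 ± 0.06, SE, limma adjusted p = 0.000847, Smc4 by -0.50 ± 0.09, 0.004, and Ncapg by -0.46 ± 0.06, 0.001). Of cohesin and Ctcf 5 of 10 were lower (Smc1a, Smc3, Rad21, Stag2 and Pds5b, from -0.17 to -0.33). Of the proliferation genes 6 of 18 were lower (Mki67, Ccnb1, Bub1, Kif11, Cenpf and Pcna, from -0.26 to -0.45). Fmr1 (-0.23) of the 5 type IA partners and Mre11a (-0.32) and Xrcc5 (-0.25) of the 15 repair genes were also lower. Smarcb1 (0.32) and Arid1b (0.34) of the 11 remodellers were higher. These genes were named after their values were seen. Calls over all genes fell from 2338 to 715 with Het 3 placed in batch 2 and to 322 with endothelial and Purkinje covariates. The counts within the lists are given for the main model only. With the proliferation marker level as a covariate, the batch change of Top2a was -0.14 (adjusted p = 0.118) and that of Top2b was -0.26 (0.0139).

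**Figure D4:**
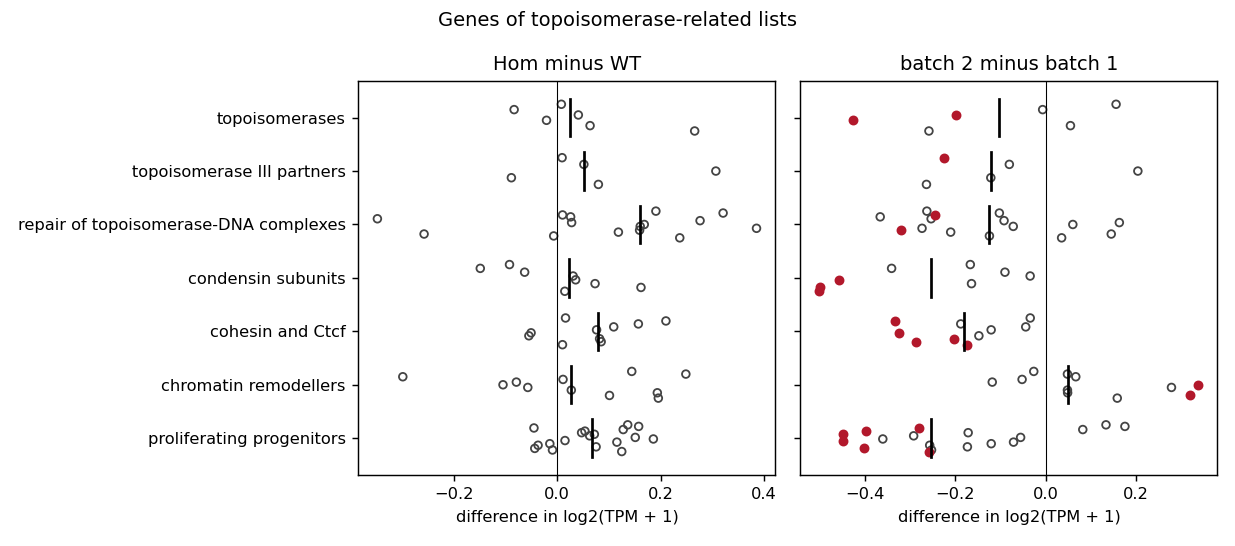
Differences in log2(TPM + 1) (horizontal axis) for each tested gene of 7 lists (rows) in libraries labelled Hom minus WT (left) and in batch 2 minus batch 1 (right); filled red points are called (limma adjusted p under 0.05), open points are not, and black bars are list medians. No point is filled on the left. On the right 3 of 8 condensin, 5 of 10 cohesin and 6 of 18 proliferation genes are filled below 0 (5.61% of all genes).

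Among the cell type markers, the genotype comparison did reach neuronal genes. Of 11 tested genes of differentiating granule neurons, 3 were called lower in Hom than in WT, beside 1.41% of all genes. They were Stmn2, a microtubule regulator of growing neurites (-0.55 ± 0.05, SE, limma adjusted p = 0.000111), the neuronal tubulin Tubb3 (-0.38 ± 0.07, 0.0111) and the vesicular glutamate transporter Slc17a7 (-0.71 ± 0.17, 0.0439). Changes were below 0 in 9 of the 11 and above 0 in Calb2 (0.49 ± 0.41, 0.641) and Cdkn1b (0.01 ± 0.06, 0.974). Ccnd1, the D-type cyclin of GNPs, was higher (0.80 ± 0.08, 0.000111), the only one called of 8 GNP genes, beside 1.27% of all genes called higher. Changes of these 8 were mixed, with 5 above 0 and 3 below 0. An unadjusted p under 0.05 was held by 3 of them, in both directions (14.9% of all genes). Pcp4 was the only one called of 5 Purkinje cell genes (-1.73 ± 0.31, 0.00914). With a mean of 61.1 TPM in WT, it is itself a large part of the Purkinje marker sums that were high in WT 1 to 3. No gene was called in Hom against WT among the markers of endothelium, astroglia, oligodendroglia, microglia, red blood cells, meninges and inhibitory interneurons, and 5 of 6, 5 of 7, 1 of 6, 0 of 7, 4 of 5, 0 of 5 and 0 of 5 of them, respectively, had an unadjusted p under 0.05 (14.9% of all genes). All 6 endothelial genes had values above 0 (median 1.56 in log2), and all 7 astroglial and all 5 red blood cell genes had values below 0 (medians -0.86 and -0.80).

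The study links Top2b to long genes in cultured post-mitotic granule neurons, a different cell state from the uncultured GNPs of these libraries. With that limit, called genes were counted by annotated span. Of 2172 tested genes spanning over 100 kb, 98 (4.51%) were lower and 63 (2.9%) higher in Hom than in WT. The shares were 0.968% and 0.663% for genes of up to 10 kb, 0.809% and 1.14% for those of 10 to 30 kb, and 1.17% and 1.46% for those of 30 to 100 kb. The median change of the genes over 100 kb was 0.04. In Het against WT, 0 of these 2172 genes were called in limma. The counts of long genes fell to 19 lower and 25 higher in batch 1 alone and to 3 lower and 0 higher in batch 2 alone. Calls over all genes, in either direction, fell as well, from 465 to 162 in batch 1 alone and to 4 in batch 2 alone. Without Hom 1 the counts of long genes were 63 lower and 38 higher. Without the 4 libraries of low endothelial marker level they were 54 lower and 7 higher. In the same comparison 0 of 6 topoisomerases were called, as given above.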

How the data were processed

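The authors deposited 1 table of gene-level TPM values for 41381 Ensembl genes in 14 libraries. They mapped single-end Illumina reads to the mm10 transcriptome with Bowtie 1.0.0 and estimated expression with RSEM 1.2.15 at default settings. Control columns were taken as WT of the same number. The columns sum to 999999 to 1000001, and TPM keeps no read count, so no counting error was computed.

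The 6 topoisomerases, the gene lists and the tests were chosen with earlier results of these data known. The 17325 genes that reached 1 TPM in 4 or more libraries were tested on the scale of log2(TPM + 1). This scale understates changes of low genes. Linear models with genotype and batch were fitted across all genes with limma 3.58.1 (R 4.3.3, eBayes with trend), with two-sided p-values adjusted by Benjamini-Hochberg, and a gene was called at an adjusted p under 0.05. The study used ComBat and a Kruskal-Wallis test; here the batch was a model term, and the Kruskal-Wallis statistic was permuted exactly within batch. Correlations used batch-adjusted values, with 100000 permutations within batch and adjustment over 12 relations. Scripts were tested on simulated data. Ranges, ratios, motif counts and likeness are descriptions.

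Genes named are the 6 members, Chd7, the called genes of each list or, where none was called, the 2 with the largest change in Hom against WT, the 3 genes most like each member, and genes with overlapping exons. Other names are marked as chosen after their values were seen, and Zic1, Gabra6, Tdp1 and Tdp2 were named for their role. Correlations of deviations from group means ranged from -0.101 to 0.253 over 11 same-numbered pairs within a batch (median 0.078, 4 over 0.1), beside a median of -0.046 over 22 differently numbered pairs. Where a genotype had 2 libraries in a batch, their deviations mirrored each other, so the 2 kinds of pairs are not independent. These correlations therefore cannot decide whether same-numbered libraries were paired. Since not every pair was over 0.1, numbers were not treated as pairs in the main model. The alternatives tried were other pseudocounts (0.1, 0.5), filters, scalings, batch handling, covariates, library weights, the replicate block and leaving out each library.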

Additional observations from a re-analysis of the deposited data

Results flagged for a closer look

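The difference between the genotypes in Top2a had opposite signs in the 2 sequencing batches, with every library labelled Hom below WT in batch 1 and above WT in batch 2. The change in log2(TPM + 1) of Hom against WT was larger in batch 2 than in batch 1 by 0.806 ± 0.259 (SE), and the test of that difference gave an adjusted p of 0.169 in limma, so it did not pass over all genes. Top1 showed the same opposite order, with a difference of 0.907 ± 0.343 (adjusted p = 0.22). A total of 8.05% of all genes tested held such an opposite order without overlap. No library passed Dixon's criterion within its genotype for any of the 6 genes, but the groups of 4 or 5 libraries join both batches, whose levels differ, so this says little about single libraries.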

How the results depend on the processing

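The counts of topoisomerases called in the 3 genotype comparisons and in the 3-group rank test were 0 under every alternative run. TPM keeps no read depth, so the limit that depth sets is unknown, and with 2 to 3 libraries of a genotype in a batch the tests within single batches are weak. The values below are those whose sign or count changed, together with some that kept their sign but changed in size. The cause was not tested. For Hom against WT, median-ratio scaling gave -0.020 for Top3b, and quantile normalization gave 0.010 for Top2a and -0.0024 for Top3b, with r of -0.047 for Top3b with proliferation genes and -0.074 for Top2b with neuronal genes. In batch 1 alone the changes in Hom were -0.15 for Top1 and -0.19 for Top1mt, that of Top3a in Het was 0.033, 19 long genes (over 100 kb) were called lower and 25 higher, and 1 correlation passed, with r of 0.146 for Top1 and -0.226 for Top2b with neuronal genes. In batch 2 alone the changes in Hom were 0.76 for Top1, 0.42 for Top2a, -0.080 for Top2b and -0.10 for Top3b, 3 long genes were called lower and 0 higher, 0 correlations passed, and r of Top3b with proliferation genes was -0.11. The change of Top1 in Hom was 0.16 with library weights and 0.17 with the proliferation covariate. With only the 2 genotypes compared, 56 long genes were lower and 38 higher. Calls over all genes in Hom against WT moved too, from 465 in the main model to 162 in batch 1 alone and 4 in batch 2 alone. They were 259 with only the 2 genotypes compared, 862 with the proliferation covariate and 407 with endothelial and Purkinje covariates. With genotype removed as well as batch, 5 correlations passed, among them that of Top3b with neuronal genes (r = 0.643, adjusted permutation p = 0.0405).

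For batch 2 against batch 1, the count of members called was 1 with every gene above 0 in at least 4 libraries tested, 1 with the proliferation covariate, where Top1 changed by 0.034 and 124 long genes were higher in Hom, and 0 with Het 3 in batch 2. With endothelial and Purkinje covariates it was 0, and the changes in Hom were 0.50 for Top1, 0.31 for Top2a, -0.026 for Top2b and -0.037 for Top3b, with 26 long genes higher. Without the 4 libraries of low endothelial marker level, an alternative chosen after seeing the data, it was 0, Top1 changed by 0.073 between batches, and the changes in Hom were 0.66 for Top1, 0.37 for Top2a, -0.051 for Top2b and -0.081 for Top3b (-0.019 for Top2b in Het), with 54 long genes lower and 7 higher and r of -0.252 for Top3b with proliferation genes.

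With the replicate block, the change of Top2a in Hom was 0.0026 and 52 long genes were called lower and 37 higher, and it changed no call of a topoisomerase between genotypes. Leaving out 1 library at a time, the changes in Hom ranged from 0.09 (without WT 4) to 0.39 for Top1, -0.028 to 0.20 for Top1mt, -0.15 to 0.12 for Top2a, -0.024 to 0.096 for Top2b, -0.14 to 0.029 for Top3a and -0.035 to 0.076 for Top3b. The members called between batches ranged from 0 to 2, the long genes called lower from 63 to 103 and higher from 38 to 67, r of Top2b with neuronal genes from -0.175 to 0.13 and r of Top3b with proliferation genes from -0.21 to 0.177.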

Other observations

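Summed over the 6 genes, topoisomerase transcripts took 694 TPM in WT 4, the lowest library, and 1138 TPM in Het 3, the highest. The sum was 983 to 1100 TPM in the WT libraries of batch 1, 694 and 806 TPM in those of batch 2, 948 and 895 TPM in Hom in batch 1, and 896 and 885 TPM in Hom in batch 2. The ratio of Top2a to Top1 was steadier than either gene, at 2.89 to 4.58 over the 14 libraries, and its 2 lowest values were those of Hom 4 (2.89) and Het 5 (3.11).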
